A study of Rattus norvegicus with 16 samples.

Results

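The genes described here encode subunits of the oxidative phosphorylation machinery. They were chosen by symbol, as every gene whose name begins as those of complex I (Nduf followed by a, b, c, s or v and a number), complex III (Uqcr and Cyc1), complex IV (Cox4 to Cox8) or ATP synthase (Atp5), together with the 4 genes of complex II (Sdha to Sdhd). This gave 85 of the 23285 genes of the count table, of which 83 passed the filter on low counts. By complex they were 36 genes of complex I (35 tested), 4 of complex II, 9 of complex III, 15 of complex IV (14 tested) and 16 of complex V. A further 5 genes that the symbol rule also takes encode assembly or regulatory proteins or carry a like-gene symbol (Cox7a2l, Cox7a2l2, Ndufa10l1, Atp5s and Atp5if1) and were set apart. The subunits encoded by the mitochondrial genome and Cox7a2 are not analysed here.

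RNA was sequenced from 4 tendons of Sprague Dawley rats: the supraspinatus tendon of the shoulder, the flexor tendons of the forepaw, the patellar tendon and the Achilles tendon. The 16 libraries were made from total RNA, 4 for each tendon, with no treatment and no altered genotype in the labels, and the series was designed to compare every tendon with every other. The labels do not give age. The titles number the rats 1 to 4 in each tendon, and whether a number stands for 1 animal across tendons is not stated. The p-values measure the spread between these samples, which may be technical. Library totals ran from 63397591 to 102491699 counts. Genes that mark tendon fibroblasts were present in all 4 tendons: the summed level of 9 such genes was 43890 to 81640 CPM in supraspinatus, 41590 to 63530 CPM in flexor, 54570 to 114000 CPM in patellar and 67870 to 143800 CPM in Achilles libraries.

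Oxidative phosphorylation couples the oxidation of NADH and succinate to the synthesis of ATP. Complexes I, III and IV pump protons across the inner mitochondrial membrane, complex II passes electrons from succinate into the chain without pumping, and complex V, the ATP synthase, uses the proton gradient. Skeletal muscle is rich in these complexes and uses muscle forms of a few complex IV subunits in place of the general forms, while tendon fibroblasts are known as cells of low oxidative activity.

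Levels are in CPM, the counts of a gene relative to the TMM-scaled library total. Each fold change is on the log2 scale with its SE and comes from a fit of all genes with edgeR (quasi-likelihood test), with Benjamini-Hochberg adjustment over all tested genes and a threshold of 0.05 on the adjusted p. Since the counts are not divided by gene length, levels were compared between tendons and not between genes.

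The supraspinatus tendon stood apart from the other 3 tendons. The 85 genes together took 2.22 to 3.71% of the counts of supraspinatus libraries, 0.928 to 1.66% in flexor, 1.01 to 1.45% in patellar and 1.18 to 1.28% in Achilles libraries. The lowest supraspinatus library therefore lay above the highest library of any other tendon. The summed level was 33580 ± 11620 CPM in supraspinatus, 12880 ± 2994 CPM in flexor, 11150 ± 1381 CPM in patellar and 11230 ± 838 CPM in Achilles libraries (SD, n = 4 each). The flexor, patellar and Achilles libraries overlapped. Supraspinatus 4 was the highest library of all, at 50670 CPM, against 25360 to 30920 CPM in the other 3 supraspinatus libraries.

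The supraspinatus libraries stood apart in every complex. Without isoforms and set-apart genes, the 34 genes of complex I summed to 7008 to 13730 CPM in supraspinatus, 2459 to 4299 in flexor, 2623 to 3546 in patellar and 2858 to 3325 in Achilles libraries. The 4 genes of complex II summed to 1657 to 3361 CPM in supraspinatus, 706 to 1124 in flexor, 633 to 914 in patellar and 739 to 861 in Achilles libraries. The 9 genes of complex III summed to 2859 to 5716 CPM in supraspinatus, 1043 to 1855 in flexor, 1101 to 1372 in patellar and 1086 to 1394 in Achilles libraries. For the 16 genes of complex V the sums were 9200 to 19090 CPM in supraspinatus, 3149 to 5926 in flexor, 3124 to 4534 in patellar and 3497 to 4078 in Achilles libraries. No supraspinatus library overlapped another tendon in any of these sums.

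**Figure D1:**
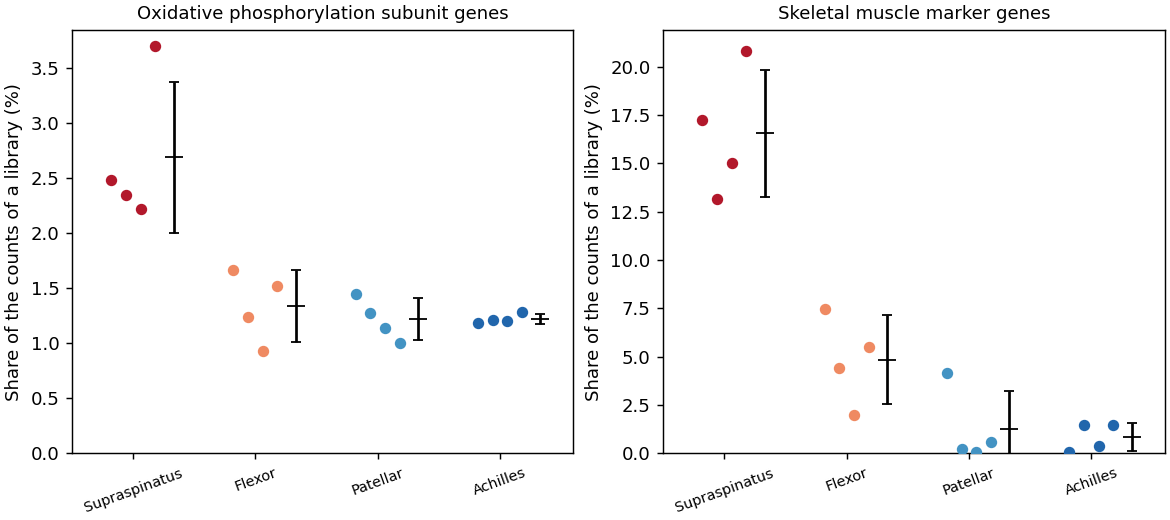
Share of each library's counts (%) in the 85 oxidative phosphorylation subunit genes (left) and in 29 skeletal muscle marker genes (right), by tendon. Points are single libraries in replicate order and black bars are mean ± SD (n = 4). Supraspinatus libraries hold 2.22 to 3.71% of counts in the subunit genes and 13.2 to 20.8% in the muscle markers, above every library of the other tendons in both panels.

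Skeletal muscle RNA was also highest in supraspinatus, and markers of some other cell types differed too. Schwann cell markers (5 genes) summed to 29.9 to 45.7 CPM in supraspinatus, 787 to 1990 in flexor, 159 to 538 in patellar and 268 to 4809 CPM in Achilles libraries. Macrophage and blood markers (9 genes) averaged 919 CPM in supraspinatus, 1275 in flexor, 1287 in patellar and 1481 CPM in Achilles tendon. Pericyte and smooth muscle markers (10 genes) averaged 1317, 1632, 1360 and 1631 CPM in the same tendons. In both sets the supraspinatus libraries (610 to 1231 and 1040 to 1529 CPM) overlapped those of every other tendon. Of the 9 macrophage and blood markers, 0 were called against flexor tendon. Against patellar and Achilles tendon 5 were lower (28.8% and 25.4% of all genes) and 0 higher. Pericyte and smooth muscle markers were called in both directions against each tendon. Brown fat markers (5 genes) averaged 346, 126, 37.9 and 54.2 CPM in the 4 tendons. The brown fat markers did not all go 1 way. Of the 4 tested, 2 were higher and 0 lower in supraspinatus than in flexor tendon. Against patellar tendon 3 were higher and 1 lower, and against Achilles tendon 2 were higher and 1 lower. Ucp1, which is on this list, was at 0 in every supraspinatus library. Ppara, also on this list, is counted again among the regulators of mitochondrial biogenesis below. The part of all these cell types in the levels of the members was not tested. The 29 skeletal muscle markers took 13.2 to 20.8% of counts in supraspinatus, 1.97 to 7.47% in flexor, 0.0759 to 4.16% in patellar and 0.0916 to 1.48% in Achilles libraries, and none of the 29 was at 0 in a tendon. They were higher in supraspinatus for 7 of 29 against flexor, 29 of 29 against patellar and 21 of 29 against Achilles tendon, where 24.3%, 27.5% and 24.7% of all genes were. The list pools fast, slow and general muscle genes. In patellar against Achilles tendon 3 of them were higher and 8 lower (2.06% and 3.1% of all genes). The slow fibre gene Myh7 was lower (-6.82, edgeR adjusted p 0.024) and the fast fibre gene Actn3 higher (5.88, edgeR adjusted p 0.019). Both were named after their values were seen. Within the supraspinatus, supraspinatus 4 was highest in both sets, with 20.8% of counts in muscle markers and 3.71% in the subunit genes. Within the flexor tendon, flexor 1 was highest (7.47% muscle markers, 1.66% subunit genes) and flexor 3 lowest (1.97% and 0.928%). Patellar 1 was the highest patellar library in both sets (4.16% and 1.45%). Patellar 4 had more muscle RNA than patellar 2 but the lowest patellar subunit share (0.570% and 1.01%, against 0.199% and 1.28%). In the Achilles tendon, Achilles 1 was lowest in both sets (0.0916% and 1.18%), and Achilles 2 (1.48% and 1.21%) and Achilles 4 (1.46% and 1.28%) were the highest in both. This order did not hold for the 70 subunits without isoforms and set-apart genes. Their share was 1.076% in Achilles 1, 1.073% in Achilles 2, 1.07% in Achilles 3 and 1.111% in Achilles 4. Patellar 3, with the least muscle RNA of all libraries (0.0759%), still had 1.14% of its counts in the subunit genes. In bulk RNA, fewer cells of a type and less RNA per cell cannot be told apart, and because no library of another tendon reached the muscle share of any supraspinatus library, the tendon and its muscle content cannot be told apart either.

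Among the 4 tendons together, 80 of the 83 tested members differed, in a table where 75.6% of all tested genes did. The 3 that did not were Atp5pb, a stalk subunit of ATP synthase with few counts, and the alternative isoforms Cox4i2 and Ndufa4l2. Against the flexor tendon, 74 of 83 members were higher in supraspinatus, where 24.3% of all genes were higher and 47.7% changed in either direction. No member was lower (23.4% of all genes) by edgeR, DESeq2 or limma-voom, nor at an unadjusted p under 0.05 (0 members). Against the patellar tendon, 76 were higher (27.5% of all genes) and 3 lower (28.8%), so that 79 of 83 were called, against 56.4% of all genes. Against the Achilles tendon, 76 were higher (24.7%) and 3 lower (25.4%), again 79 of 83, against 50.1% of all genes. The median log2 fold change of the members was 1.36 against flexor, 1.40 against patellar and 1.55 against Achilles tendon, beside medians of 0.03, -0.05 and -0.05 over all tested genes. These 3 comparisons share the supraspinatus libraries. The libraries did not overlap for 78 members against flexor (48.1% of all genes), 79 against patellar (48.3%) and 79 against Achilles tendon (44.2%).

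**Figure D2:**
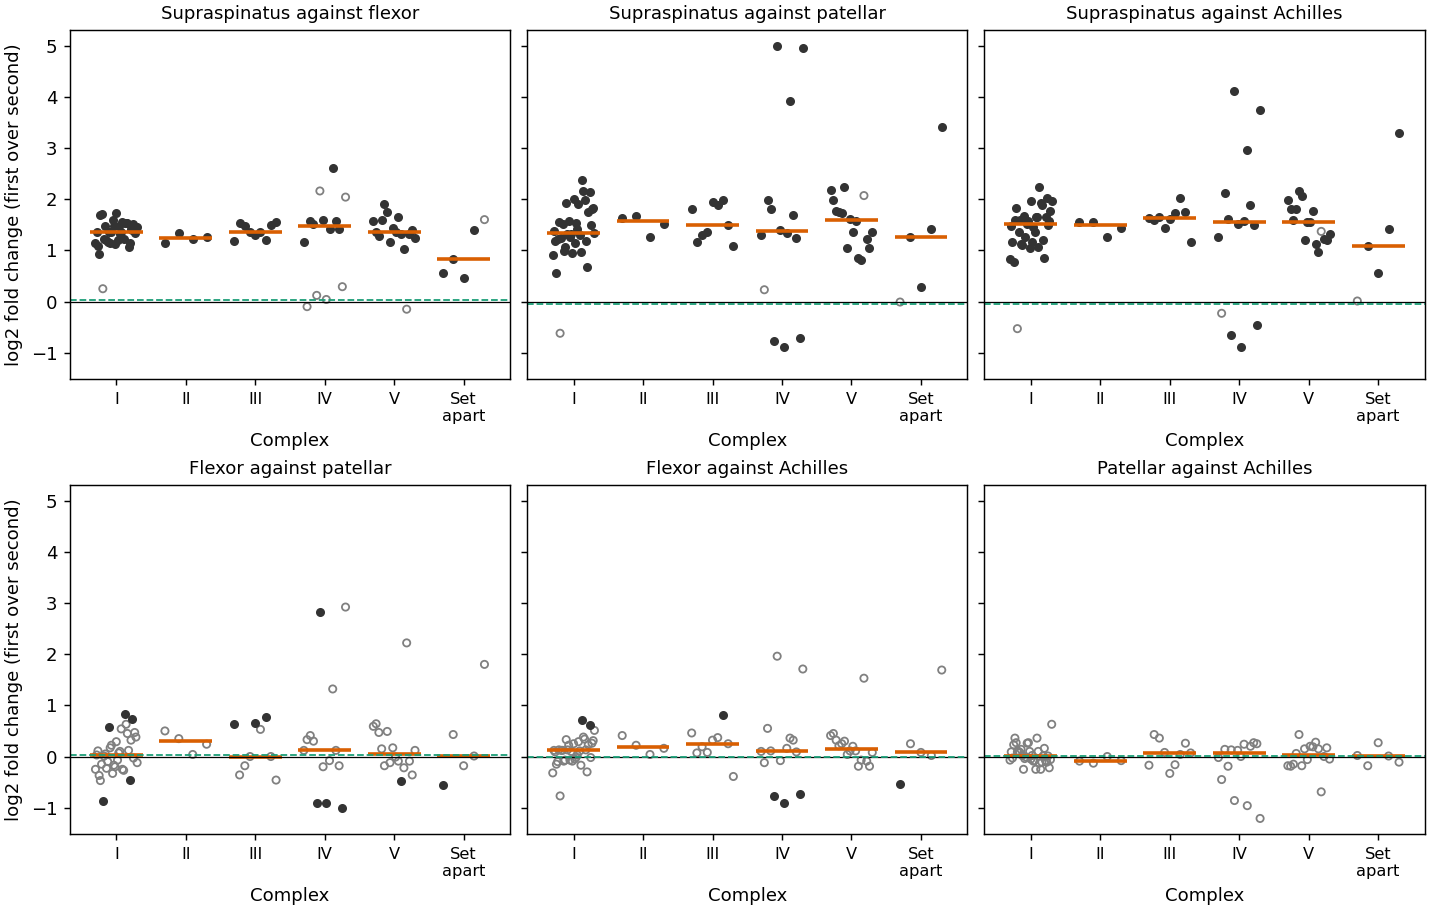
Log2 fold change of each tested member (first tendon over second) by complex, for the 6 pairs of tendons. Filled points passed the threshold, open points did not, orange bars are medians of a complex and the dashed green line is the median of all tested genes. In the upper row complexes I to V have medians of 1.25 to 1.64, while in the lower row the medians lie between -0.08 and 0.29.

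In complex I, 34 of 35 tested genes were higher in supraspinatus than in each of the other 3 tendons, with medians of 1.36 against flexor, 1.33 against patellar and 1.52 against Achilles tendon. The largest differences from Achilles tendon were those of Ndufs1 and Ndufs7, core subunits that carry iron-sulphur clusters of the electron path. Ndufs1 had 513, 524, 378 and 911 CPM in supraspinatus, 269, 181, 124 and 232 in flexor, 149, 110, 101 and 89.5 in patellar and 109, 146, 100.4 and 136 CPM in Achilles libraries. Every supraspinatus library was above every other library, and the fold change against Achilles tendon was 2.24 ± 0.29 (adjusted p 2.3e-05). Ndufs7 had 491, 425, 405 and 824 CPM in supraspinatus and 129, 141, 114 and 143 CPM in Achilles libraries, a fold change of 2.03 ± 0.25 (adjusted p 1.8e-05). The smallest called difference was that of Ndufa2, an accessory subunit, with 145, 125, 132 and 230 CPM in supraspinatus and 86.0, 87.4, 93.7 and 102 CPM in Achilles libraries (0.77 ± 0.16, adjusted p 0.0011). The 7 nuclear-encoded core subunits, which hold the flavin and iron-sulphur clusters or bind quinone, had a median of 1.88 against Achilles and 1.99 against patellar tendon. Accessory subunits surround the core and serve its assembly and stability. The 27 genes tested that were counted as accessory by symbol, Ndufa4 among them, had medians of 1.46 and 1.30. Against the flexor tendon the medians were 1.52 for core and 1.35 for accessory subunits. The difference between the 2 kinds was not tested.

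Ndufa4, which is listed with complex I by its symbol but is known as a subunit of complex IV, was higher in supraspinatus than in Achilles tendon by 1.83 ± 0.26 (adjusted p 5.9e-05). The sums, counts and medians by complex hold it under complex I and not under complex IV. Ndufa1 did not pass the filter. It had 0 to 8 counts in 15 libraries and 59 counts in flexor 4, so that its row is near or under the floor of 3 counts in most libraries. Ndufv3 had 0.399 to 2.51 CPM over all libraries, and what so few reads of a subunit measure is uncertain.

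All 4 genes of complex II, the succinate dehydrogenase that also serves the citrate cycle, were higher in supraspinatus than in each other tendon. Sdha, the flavoprotein that oxidizes succinate, had 721, 701, 591 and 1232 CPM in supraspinatus, 436, 336, 282 and 419 in flexor, 313, 271, 253 and 205 in patellar and 322, 290, 250.3 and 246 CPM in Achilles libraries. The supraspinatus libraries lay above all others, by 1.14 ± 0.22 against flexor and 1.55 ± 0.22 against Achilles tendon (adjusted p 0.00062 and 5.5e-05). The iron-sulphur subunit Sdhb differed from Achilles tendon by 1.55 ± 0.22 (adjusted p 4.8e-05), and the membrane anchors Sdhc and Sdhd by 1.26 ± 0.22 and 1.43 ± 0.19 (adjusted p 0.00032 and 3.6e-05).

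All 9 genes of complex III were higher in supraspinatus than in each other tendon, with medians of 1.35 against flexor, 1.5 against patellar and 1.64 against Achilles tendon. Uqcrfs1, the Rieske iron-sulphur protein, had 536, 450, 377 and 724 CPM in supraspinatus, 304, 199, 136 and 266 in flexor, 138, 140, 137 and 115 in patellar and 83.8, 140, 125 and 167 CPM in Achilles libraries. Its fold change against Achilles tendon was 2.02 ± 0.27 (adjusted p 3e-05). Cyc1, cytochrome c1, had 451, 403, 319 and 595 CPM in supraspinatus and 89.6, 155, 140 and 181 CPM in Achilles libraries (1.64 ± 0.24, adjusted p 7.8e-05). Uqcrh, a hinge protein beside cytochrome c1, differed by 1.75 ± 0.20 (adjusted p 9.4e-06). The smallest differences in the complex were those of the small subunits Uqcrq (1.16 ± 0.24, adjusted p 0.0010) and Uqcrb (1.43 ± 0.24, adjusted p 0.0002), the second of which had only 3.65 to 21.0 CPM over all libraries.

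In complex V, 15 of 16 genes were higher in supraspinatus than in each other tendon, with medians of 1.36, 1.60 and 1.55 against flexor, patellar and Achilles tendon. The 5 subunits of the catalytic F1 head were all higher in supraspinatus, with a median of 1.80 against Achilles tendon and a range of 1.60 to 2.15. The 3 genes of the rotating c ring ranged from 1.20 to 2.06, and the 4 other membrane subunits tested from 0.96 to 1.77. Atp5f1e, the epsilon subunit of F1, had 517, 389, 444 and 837 CPM in supraspinatus and 96.5, 121, 117 and 157 CPM in Achilles libraries (2.15 ± 0.25, adjusted p 1.2e-05). Atp5mc1 encodes the same mature c subunit as Atp5mc2 and Atp5mc3, so the counting could split reads between them and its level is uncertain. It had 494, 425, 379 and 857 CPM in supraspinatus and 104, 140, 114 and 161 CPM in Achilles libraries (2.06 ± 0.28, adjusted p 4e-05). The membrane subunits Atp5mg (0.96 ± 0.19, adjusted p 0.00071) and Atp5mf (1.13 ± 0.17, adjusted p 9.2e-05) differed least. Atp5pb had 0.243 to 7.06 CPM over all libraries, with its highest values in flexor 3 and supraspinatus 4, and passed the threshold in no pair.

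Complex IV, the cytochrome c oxidase, held genes that moved in opposite directions. Of its 14 tested genes, 10 were higher and 3 lower in supraspinatus than in patellar tendon, with the same counts against Achilles tendon. Against flexor tendon 8 were higher and 0 lower. The 7 subunits Cox4i1, Cox5a, Cox5b, Cox6b1, Cox6c, Cox7b and Cox7c were all higher in supraspinatus than in each other tendon. Cox4i1, the regulatory subunit in its general form, had 401, 347, 334 and 614 CPM in supraspinatus and 188, 176, 172 and 166 CPM in Achilles libraries. Its fold change against Achilles tendon was 1.27 ± 0.18 (adjusted p 6.4e-05). Cox6b1, a subunit facing the intermembrane space, differed by 1.52 ± 0.19 (adjusted p 1.8e-05).

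The muscle forms Cox6a2 and Cox8b, found in heart and skeletal muscle, had the largest differences of all tested members against Achilles and patellar tendon. Cox6a2 had 1407, 1078, 1142 and 2387 CPM in supraspinatus, 489, 286, 156 and 416 in flexor, 148, 9.49, 3.75 and 28.3 in patellar and 2.10, 132, 33.5 and 177 CPM in Achilles libraries. Supraspinatus libraries lay above all others, and flexor libraries overlapped with Achilles but not with patellar libraries. The fold change was 4.12 ± 1.2 against Achilles (adjusted p 0.0095), 4.99 ± 1.2 against patellar (adjusted p 0.0033) and 2.16 ± 1.1 against flexor tendon (adjusted p 0.12). Without patellar 1 the fold change against patellar tendon was 6.79. Cox8b had 387, 340, 293 and 840 CPM in supraspinatus, 166, 93.4, 54.6 and 139 in flexor, 49.99, 3.26, 1.27 and 5.41 in patellar and 0.452, 51.1, 11.4 and 75.6 CPM in Achilles libraries. Its fold change was 3.75 ± 1.2 against Achilles (adjusted p 0.020), 4.95 ± 1.3 against patellar (adjusted p 0.0050) and 2.04 ± 1.1 against flexor tendon (adjusted p 0.16). Without patellar 1 it was 7.16 against patellar tendon. Without both Achilles 1 and patellar 1, Cox6a2 (2.21) and Cox8b (2.09) passed the threshold against flexor tendon. The call of Cox8b against Achilles tendon was lost without supraspinatus 4 (3.26) and without Achilles 3 (3.48). Patellar 1 was the highest patellar library for both genes and had 4.16% of its counts in muscle markers, while Achilles 1 was the lowest Achilles library for both and had 0.0916%. The remaining muscle form, Cox7a1, was near its floor of 3 counts (0.0266 to 0.0485 CPM) in the hindlimb tendons: it had 0.251 to 1.20 CPM in supraspinatus, 0.0605 to 0.117 in flexor, 0.0132 to 0.0567 in patellar and 0.0207 to 0.1001 CPM in Achilles libraries. Its level is low for a muscle form and what it measures is uncertain.

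The general forms Cox6a1 and Cox8a, unlike Cox4i1, were lower in the forelimb tendons than in the hindlimb tendons. Cox6a1 had 219, 226, 234 and 223 CPM in supraspinatus, 202, 210, 207 and 209 in flexor, 382, 419, 384 and 364 in patellar and 379, 321, 360 and 359 CPM in Achilles libraries. The libraries of both forelimb tendons lay below every hindlimb library. The fold change of supraspinatus was -0.65 ± 0.078 against Achilles and -0.78 against patellar tendon (adjusted p 1.4e-05 and 2.9e-06), and that of flexor tendon was -0.78 and -0.90 (adjusted p 3.5e-06 and 8.6e-07). Cox8a had 84.2, 87.6, 96.6 and 109 CPM in supraspinatus, 76.5, 72.1, 77.5 and 83.4 in flexor, 154, 175, 157 and 132 in patellar and 153, 110, 132 and 122 CPM in Achilles libraries. It was lower by -0.46 ± 0.12 against Achilles and -0.71 against patellar tendon in supraspinatus (adjusted p 0.0045 and 0.00014), and by -0.74 and -1.0 in flexor tendon (adjusted p 0.00014 and 9.9e-06). Between supraspinatus and flexor tendon the libraries of both genes did not overlap, and neither gene passed the threshold (0.12 and 0.29, adjusted p 0.20 and 0.053). Cox8a passed it in 8 of the 16 fits that left out 1 library, with fold changes of 0.15 to 0.37 over all of them. The white fat markers moved with this difference. Their summed level over 6 genes was 474 to 1284 CPM in supraspinatus, 501 to 976 in flexor, 4919 to 12790 in patellar and 3169 to 11930 CPM in Achilles libraries, with none at 0 in a tendon, and all 6 were lower in each forelimb tendon than in each hindlimb tendon. The 5 endothelial markers summed to 323 to 711 CPM in supraspinatus, 214 to 342 in flexor, 888 to 1404 in patellar and 660 to 980 CPM in Achilles libraries. The part of these cells in the levels of Cox6a1 and Cox8a was not tested.

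Because a ratio within a library does not depend on scaling, the log2 ratio of each isoform pair was compared between tendons by a two-sided exact permutation test, with 0.5 added to each count. The smallest p that 4 against 4 libraries allow is 0.0286, and 30 comparisons of 5 ratios were adjusted together, of which 20 passed the threshold. All 20 had this smallest p and so the same adjusted p of 0.0429. That value depends on how many comparisons reached the smallest p, so the 20 calls stand or fall together. The comparisons also share libraries and are not independent. For Cox6a2 over Cox6a1 the ratio was 2.68, 2.26, 2.29 and 3.42 in supraspinatus, 1.28, 0.45, -0.41 and 0.99 in flexor, -1.37, -5.46, -6.67 and -3.68 in patellar and -7.49, -1.27, -3.42 and -1.02 in Achilles libraries. The tendons stood in the order supraspinatus, flexor and then the hindlimb tendons, which overlapped. The mean difference was 2.09 for supraspinatus against flexor, 5.96 against Achilles and 6.96 against patellar tendon, and 3.88 and 4.87 for flexor against Achilles and patellar tendon (exact p 0.0286 and adjusted p 0.0429 for each of the 5). Patellar and Achilles tendon differed by -0.99 (exact p 0.60, adjusted p 0.667). Cox8b over Cox8a gave the same order, with means of 2.17 ± 0.57 in supraspinatus, 0.43 ± 0.69 in flexor, -4.73 ± 2.28 in patellar and -3.43 ± 3.53 in Achilles libraries (SD, n = 4 each, exact test), and the same 5 comparisons passed (adjusted p 0.0429). Patellar 1, the patellar library with the most muscle RNA, had the highest ratio of the patellar libraries (-1.37 for Cox6a2 over Cox6a1) and Achilles 1, the Achilles library with the least, had the lowest of all 16 (-7.49).

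**Figure D3:**
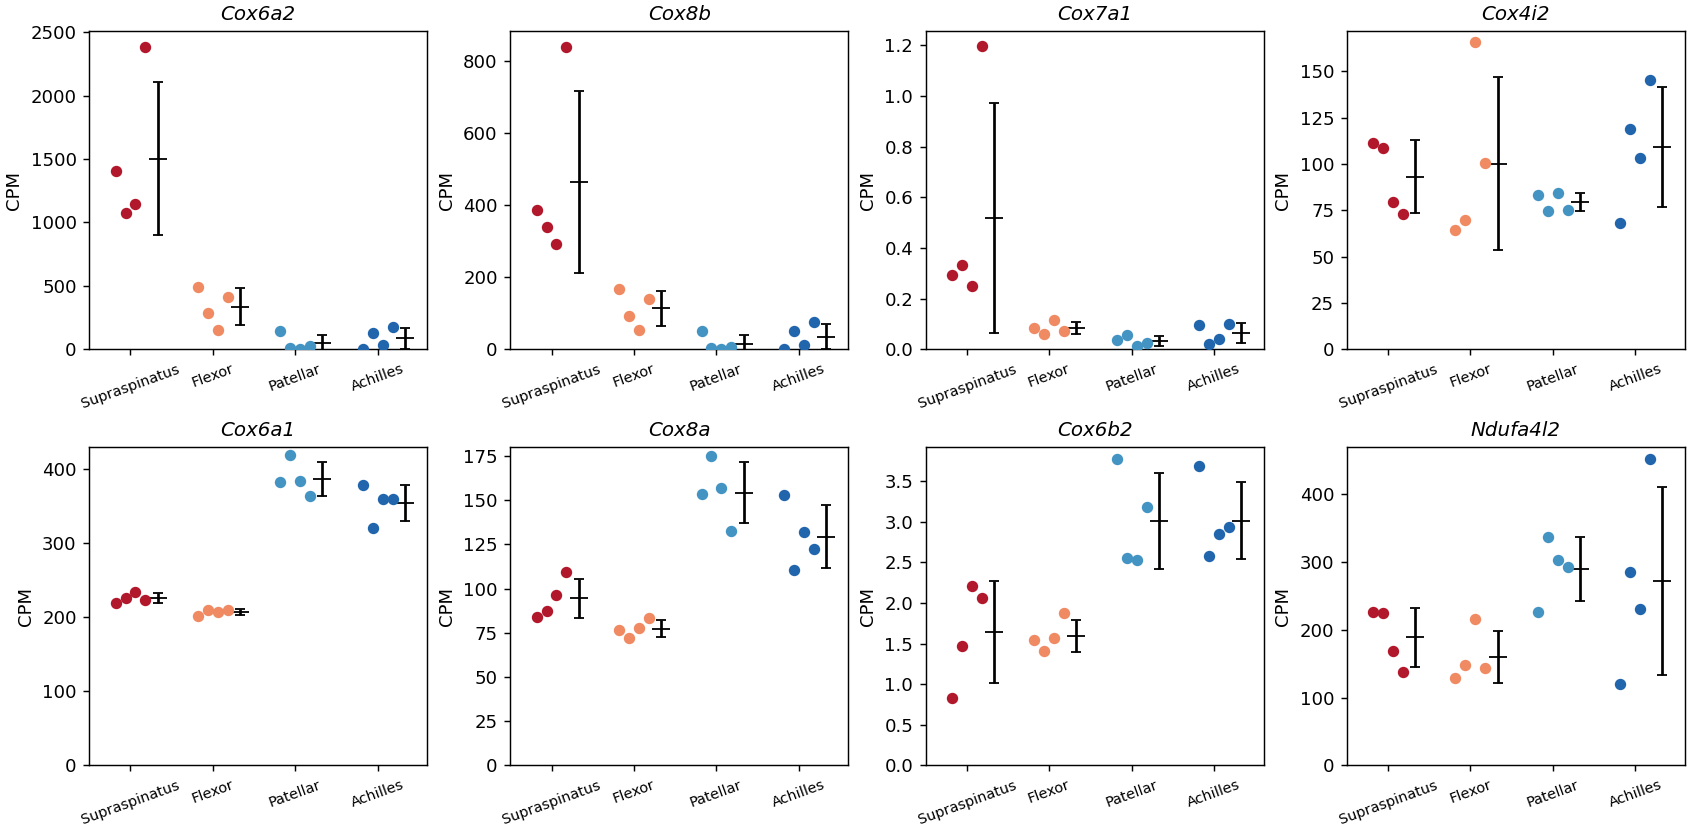
CPM of 8 isoform genes (Ndufa4l2 and genes of complex IV) in each library, by tendon. Points are libraries in replicate order, black bars are mean ± SD (n = 4), and every axis starts at 0. The muscle forms Cox6a2 and Cox8b are highest in supraspinatus, while the general forms Cox6a1 and Cox8a are lower in both forelimb tendons than in both hindlimb tendons.

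The region around the start of these genes was read from RefSeq (GRCr8, 250 bases before to 50 after the start, on the strand of the gene). It was read for the 2 muscle forms whose levels separated the tendons and for the general form Cox8a. Cox8a was lower in the forelimb tendons than in the hindlimb tendons. Cox6a1 has no entry in the table used. Of the 85 members 72 had such a window. Capitals mark matches, on either strand, to CAGCTG (an E-box of the kind bound by myogenic factors), to the MEF2 motif, to GGGCGG (bound by Sp1) and to CCGGAAG (bound by ETS factors such as GABP).
Cox6a2, chr1:192219667-192219966, minus strand: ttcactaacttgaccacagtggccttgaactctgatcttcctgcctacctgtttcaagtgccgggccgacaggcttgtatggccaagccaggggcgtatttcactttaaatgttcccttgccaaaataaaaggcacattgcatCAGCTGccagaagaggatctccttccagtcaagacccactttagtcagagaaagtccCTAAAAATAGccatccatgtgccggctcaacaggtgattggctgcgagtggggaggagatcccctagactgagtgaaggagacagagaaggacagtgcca
Cox8b, chr1:205408224-205408523, minus strand: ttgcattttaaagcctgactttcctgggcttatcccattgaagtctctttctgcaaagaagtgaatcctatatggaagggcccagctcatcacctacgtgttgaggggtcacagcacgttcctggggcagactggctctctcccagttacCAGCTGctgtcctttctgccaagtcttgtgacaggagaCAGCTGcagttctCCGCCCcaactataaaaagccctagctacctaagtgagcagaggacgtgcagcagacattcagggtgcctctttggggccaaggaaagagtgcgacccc
Cox8a, chr1:213833574-213833873, minus strand: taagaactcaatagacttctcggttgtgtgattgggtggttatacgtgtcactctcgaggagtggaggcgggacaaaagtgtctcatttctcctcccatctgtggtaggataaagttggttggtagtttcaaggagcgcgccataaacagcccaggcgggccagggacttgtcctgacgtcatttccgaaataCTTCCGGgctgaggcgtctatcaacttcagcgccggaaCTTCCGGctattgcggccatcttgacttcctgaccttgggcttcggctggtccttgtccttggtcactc

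The Cox6a2 window held 1 CAGCTG, beginning 107 bases before the start, and 1 match to the MEF2 motif 50 bases before it. The Cox8b window held 2 CAGCTG, beginning 100 and 62 bases before the start, and 1 GGGCGG. The Cox8a window held 2 CCGGAAG, beginning 57 and 19 bases before the start, and neither of the muscle motifs. The window of Cox4i1, also a general form and not printed here, did hold CAGCTG, beginning 80 bases before the start. CAGCTG occurred in 11 of the 72 member windows (15.3%) and in 15.1% of the windows of all 27457 genes. Cox6a2 was the only member with a match to the MEF2 motif (1.39%, against 3.37% of all genes). CCGGAAG occurred in 19 member windows (26.4%, against 9.22% of all genes), GGGCGG in 29 (40.3%, against 34.9%), the NRF1 motif in 4 (5.56%, against 0.932%) and TCAAGGTCA, bound by oestrogen-related receptors, in 2 (2.78%, against 0.412%). No motif overlapped another in the 3 windows shown. A match is a description of the letters and not evidence of binding.

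The other isoform pairs were alternative forms outside muscle. Cox4i2, an oxygen-responsive form known from lung, had 111, 109, 79.7 and 72.8 CPM in supraspinatus, 64.2, 69.7, 166 and 100.4 in flexor, 83.2, 74.9, 84.5 and 75.4 in patellar and 68.1, 119, 103 and 146 CPM in Achilles libraries. These overlapped, and no pair passed the threshold (supraspinatus against Achilles -0.23 ± 0.28, adjusted p 0.52). Its log2 ratio to Cox4i1 was lower in supraspinatus than in patellar and Achilles tendon (differences of -1.06 and -1.43, exact p 0.0286, adjusted p 0.0429). In both of these comparisons Cox4i1 passed the threshold and Cox4i2 did not. Ndufa4l2, induced by hypoxia, had 226, 224, 169 and 137 CPM in supraspinatus, 130, 148, 215 and 144 in flexor, 226, 337, 303 and 293 in patellar and 120, 286, 231 and 453 CPM in Achilles libraries. It was lower in flexor than in patellar tendon by -0.86 (adjusted p 0.030), a call that was lost without flexor 1, flexor 2, flexor 4, patellar 2 or patellar 3 (-0.87 to -0.80). Against Achilles tendon supraspinatus gave -0.53 ± 0.31 (adjusted p 0.17), which became -0.77 and passed the threshold without Achilles 1. Its log2 ratio to Ndufa4 averaged -1.38 ± 0.79 in supraspinatus, 0.08 ± 0.85 in flexor, 0.75 ± 0.35 in patellar and 0.79 ± 0.74 in Achilles libraries (SD, n = 4 each), and the supraspinatus differed from each other tendon by the exact test (adjusted p 0.0429). In each of these comparisons Ndufa4 itself passed the threshold with all libraries and Ndufa4l2 did not. Of 12 hypoxia-induced genes, 3 were higher and 2 lower in supraspinatus than in flexor tendon, 3 higher and 1 lower than in patellar tendon, and 4 higher and 2 lower than in Achilles tendon. Egln3, an oxygen-sensing hydroxylase, differed most from Achilles tendon (2.50 ± 0.30, adjusted p 1.7e-05), and Ndrg1 was lower (-1.19 ± 0.23, adjusted p 0.00061). The summed level of the 12 genes was 1188 to 1330 CPM in supraspinatus, 1231 to 1329 in flexor, 1068 to 1198 in patellar and 947 to 1244 CPM in Achilles libraries.

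Cox6b2, known as the testis form of Cox6b1, was scarce, with 0.834 to 2.21 CPM in supraspinatus, 1.41 to 1.88 in flexor, 2.53 to 3.77 in patellar and 2.58 to 3.69 CPM in Achilles libraries. It was lower in supraspinatus than in Achilles and patellar tendon (-0.88 ± 0.26 and -0.88, adjusted p 0.010 and 0.0093), and lower in flexor than in both (-0.91 and -0.91, adjusted p 0.0087 and 0.0082). Its log2 ratio to Cox6b1 averaged -7.12 ± 0.68 in supraspinatus, -5.50 ± 0.25 in flexor, -4.82 ± 0.28 in patellar and -4.69 ± 0.20 in Achilles libraries (SD, n = 4 each), and by the exact test every pair but patellar and Achilles tendon differed (adjusted p 0.0429). Between supraspinatus and flexor tendon Cox6b1 itself passed the threshold and Cox6b2 did not. Cox7b2, another testis form, did not pass the filter, with 2 counts in Achilles 2 and 0 in the other libraries, where 3 counts correspond to at most 0.0485 CPM.

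Of the genes set apart, Atp5if1, the inhibitor of ATP synthase, was higher in supraspinatus than in flexor tendon (0.56 ± 0.096, edgeR adjusted p 0.00027) and did not pass the threshold against patellar (-0.01, adjusted p 0.95) or Achilles tendon (0.01, adjusted p 0.92). It had a mean of 144 ± 7.1 CPM in supraspinatus, 97.7 ± 3.0 in flexor, 144 ± 8.1 in patellar and 142 ± 21.3 CPM in Achilles libraries (SD, n = 4 each), and it was lower in flexor than in each hindlimb tendon (-0.56 and -0.54, edgeR adjusted p 0.00023 and 0.00036). Cox7a2l, which helps to join complexes III and IV, differed by 0.55 between supraspinatus and Achilles tendon (adjusted p 0.00019), the smallest difference among the members called higher. Ndufa10l1, with a like-gene symbol and few counts, differed by 3.29 from Achilles tendon and was named after its values were seen.

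Few members were called between the flexor tendon and the hindlimb tendons. The ratios of muscle to general isoforms did differ between them, as given above. Flexor libraries spread more, with an SD of the summed level of 2994 CPM, against 1381 in patellar and 838 in Achilles libraries. Few calls therefore do not show that the levels were alike. Against patellar tendon 7 of 83 members were higher (25.8% of all genes) and 7 lower (24.7%), so that 14 were called where 50.5% of all genes were, and the median was 0.05, beside 0.03 over all genes. The libraries did not overlap for 16 members (48.8% of all genes). The 7 higher genes were the complex I subunits Ndufs1 (0.84), Ndufs7 (0.74) and Ndufa9 (0.58), the complex III subunits Uqcrfs1 (0.77), Uqcrc1 (0.65) and Cyc1 (0.63), and Cox6a2 (2.83). The 7 lower genes were Cox8a, Cox6b2, Cox6a1, Ndufa4l2, Atp5if1 and the subunits Atp5mf (-0.47) and Ndufs5 (-0.46). Ndufa9, Uqcrc1 and Atp5if1 fall outside the rule for named genes and were named after their values were seen. The count depended on single libraries: it was 27 without supraspinatus 4, which is in neither group but shares the estimate of spread, 22 without flexor 3, 8 without flexor 2, and 6 without flexor 1, flexor 4, patellar 2, patellar 3 or patellar 4. The calls of Cox6a2, Ndufs5 and Atp5mf were lost in 12, 9 and 4 of those 16 fits. Without patellar 1 the fold change of Cox6a2 was 4.59, and Cox8b (5.07) passed the threshold. Against Achilles tendon 3 members were higher in flexor (Uqcrfs1, 0.81, Ndufs1, 0.71, and Ndufs7, 0.62) and 4 lower (Cox6b2, Cox6a1, Cox8a and Atp5if1), where 24.1% of all genes were higher, 23.5% lower and 47.7% called in either direction. The libraries did not overlap for 5 members (46.5% of all genes). The count of 7 became 4 without flexor 1 or flexor 4. Without Achilles 1, 0 members were higher and 5 lower. The count of higher members was also 0 without flexor 1 or flexor 4, and 1 without Achilles 2, Achilles 3, Achilles 4, flexor 2, patellar 2, patellar 3 or patellar 4. Flexor 3, the flexor library with the least muscle RNA, was the lowest flexor library for Ndufs1 (124 CPM) and Uqcrfs1 (136 CPM).

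Between patellar and Achilles tendon no member passed the threshold with edgeR (0 of 83), where 5.16% of all genes did, 2.06% higher and 3.1% lower. The libraries did not overlap for 4 members (12.5% of all genes). At an unadjusted p under 0.05 there were 3 members higher and 0 lower in patellar tendon, DESeq2 called 1 and limma-voom 0, and the median log2 fold change was 0.01, as over all genes. Without both Achilles 1 and patellar 1, edgeR called 2 members, Cox6a2 (-3.06) and Cox8b (-3.80), both lower in patellar tendon. Achilles 1 had the least muscle RNA of its tendon, and patellar 1 had the most of its own. They were also the lowest Achilles and the highest patellar library for both genes. Leaving them out therefore moves both genes in this direction by itself. Without only 1 of these 2 libraries, 0 of 83 members were called.

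The results for the supraspinatus tendon depended on how muscle RNA was entered in the model. With the mean log2 CPM of the 29 muscle markers as a term, 75 members were higher and 2 lower in supraspinatus than in flexor tendon, 0 higher and 3 lower than in patellar tendon, and 4 higher and 3 lower than in Achilles tendon, with medians of 1.11, 0.81 and 0.94. With the share of counts in the markers as a term, which was added after the data were seen, 0 members passed against any of the 3 tendons and the medians were -0.02, -0.35 and -0.41. In that fit 44 members were lower in flexor than in patellar tendon and 40 lower than in Achilles tendon, and 0 were higher. The medians of these 2 comparisons were -0.35 and -0.35, beside 0.02 and -0.03 over all tested genes. For supraspinatus against the 3 tendons, all tested genes had medians of 0.03, -0.03 and -0.03 with the log2 term. With the share term they were 0.02, -0.02 and -0.01. The percentage of all genes called was counted only without a muscle term, so counts with a term, here and below, have none beside them. Since the muscle shares of supraspinatus libraries do not overlap those of any other tendon, the tendon and its muscle content cannot be told apart in either fit. Both terms also enter muscle as a single amount per library, though the markers did not all go the same way between the hindlimb tendons.

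**Figure D4:**
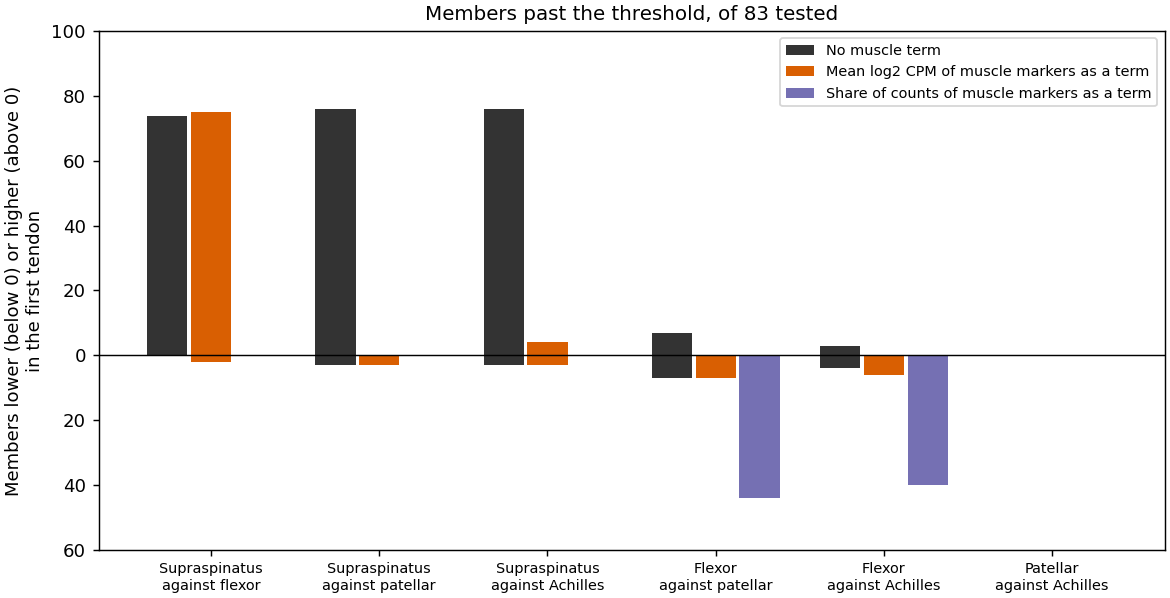
Number of members called higher (above 0) or lower (below 0) in the first tendon of each pair, with no muscle term, with the mean log2 CPM of muscle markers as a term, and with their share of counts as a term. Against patellar tendon the supraspinatus has 76 members higher with no term and 0 with either term, while against flexor tendon it has 74 with no term, 75 with the first and 0 with the second.

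Genes that serve the same complexes were described from 4 lists. In all genes, 24.3% were higher in supraspinatus than in flexor, 27.5% than in patellar and 24.7% than in Achilles tendon. Of 43 assembly factors, 39 were higher and 1 lower in supraspinatus than in flexor tendon, 35 higher and 0 lower than in patellar tendon, and 38 higher and 0 lower than in Achilles tendon, with medians of 0.85, 0.81 and 0.81, smaller than those of the subunits. The largest differences from Achilles tendon were those of Cox10, which makes the haem of complex IV (1.97 ± 0.25, adjusted p 2.2e-05), and Ecsit, a complex I assembly factor (1.85 ± 0.22, adjusted p 1.2e-05). The smallest was that of Ttc19, a complex III factor (0.06 ± 0.30, adjusted p 0.88), which was also the 1 gene lower than in flexor tendon (-1.87, adjusted p 0.00018). With the mean log2 CPM of muscle markers as a term, 36, 5 and 7 of the 43 were higher in supraspinatus than in flexor, patellar and Achilles tendon. With the muscle share of counts as a term 0 were called against any of them, and the medians were 0.10, -0.28 and -0.21.

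Of 14 genes of coenzyme Q synthesis and cytochrome c, 9 were higher and 2 lower in supraspinatus than in flexor tendon, 9 higher and 0 lower than in patellar tendon, and 9 higher and 0 lower than in Achilles tendon. With the log2 muscle term 8, 0 and 1 of them were higher, and with the muscle share as a term 0 were. Coq8a (3.36 ± 0.50, adjusted p 7.7e-05) and Coq9 (2.51 ± 0.29, adjusted p 1.2e-05), both needed for coenzyme Q synthesis, differed most from Achilles tendon. Coq10a and Coq2 were lower in supraspinatus than in flexor tendon (-1.12 and -1.64, adjusted p 0.013 and 0.0014) and were named after their values were seen. Among 15 regulators of mitochondrial biogenesis, 7 were higher and 0 lower in supraspinatus than in flexor tendon, 9 higher and 1 lower than in patellar tendon, and 9 higher and 1 lower than in Achilles tendon. With the log2 muscle term 4, 2 and 2 were higher, and with the muscle share as a term 0 were. The genes higher than in Achilles tendon included Ppargc1a, the coactivator PGC-1alpha, with means of 34.7 CPM in supraspinatus, 10.9 in flexor, 2.67 in patellar and 2.58 CPM in Achilles tendon (3.75 ± 0.54 against Achilles, adjusted p 6.5e-05), and Perm1, its target in muscle (3.53 ± 1.0, adjusted p 0.011). Gabpb1, a subunit of the ETS factor GABP, was lower than in patellar (-0.40 ± 0.10, adjusted p 0.0047) and Achilles tendon (-0.33 ± 0.10, adjusted p 0.017).

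Of 8 carriers and kinases that exchange energy across the mitochondrial membranes, 5 were higher and 0 lower in supraspinatus than in flexor tendon, 6 higher and 1 lower than in Achilles tendon, and 7 were higher and 1 lower in supraspinatus than in patellar tendon. With the log2 muscle term 5, 1 and 1 were higher than in flexor, patellar and Achilles tendon, and with the muscle share as a term 0 were. Slc25a4, the ADP/ATP carrier of heart and muscle, averaged 4563 CPM in supraspinatus, 1496 in flexor, 567 in patellar and 600 CPM in Achilles tendon (2.93 ± 0.38 against Achilles, adjusted p 2.8e-05), and Ckmt2, the creatine kinase of muscle mitochondria, differed by 3.89 ± 1.3 (adjusted p 0.023). Slc25a5, the general ADP/ATP carrier, averaged 53.4 CPM in supraspinatus, 48.6 in flexor, 104 in patellar and 105 CPM in Achilles tendon, lower in supraspinatus by -0.97 ± 0.15 against Achilles (adjusted p 8.3e-05) and by -0.96 against patellar tendon (adjusted p 7.6e-05), the same side as Cox6a1 and Cox8a. Ucp1, the uncoupling protein of brown fat, was at 0 in every supraspinatus and patellar library.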

How the data were processed

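The authors deposited a table of read counts per gene (raw counts, 16 count columns of 18). HISAT2, FastQC, edgeR and the rn6 build are named, with no role or version, per the submitters' processing notes. The sources used here do not give the counting tool, annotation or strandedness, and reads of overlapping and antisense genes cannot be told apart. Per the labels' protocols, total RNA was extracted with a column kit and DNase treatment.

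Counts were fitted in edgeR 4.0.16 (R 4.3.3) by quasi-likelihood over all 16 libraries with 1 coefficient per tendon, TMM scaling and filterByExpr (count minimum 10, total minimum 15), leaving 16948 genes and 12 residual degrees of freedom. P-values were adjusted by Benjamini-Hochberg over all tested genes within each comparison. SE is the absolute log2 fold change divided by the square root of F. Isoform log2 ratios were compared by exact permutation tests. DESeq2 1.42.0, limma 3.58.1 (voom), other scalings and filters, a replicate block, muscle terms and left-out libraries were alternatives; the term for the muscle share of counts was added after the data were seen. Members, marker lists and gene lists were chosen with earlier results of these data known. Genes named with values are those of isoform pairs, the Sdh genes and Cyc1, the 2 largest and 2 smallest differences per complex of supraspinatus against Achilles tendon, members called against the direction of their complex, members that failed the filter, and up to 4 genes per list. Any counting floor (3 counts) covers counting error only.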

Additional observations from a re-analysis of the deposited data

Results flagged for a closer look

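Of 120 groups of 4 libraries examined, 9 held a library whose gap to the nearest other exceeded Dixon's 95% critical value, where chance gives about 1 in 20. In supraspinatus 4, Cox7a1 was 1.20 CPM (0.251 to 0.331 in the others), Sdhc 818.7 CPM (416.9 to 458.2) and Uqcrq 753.1 CPM (310.3 to 360.9). In patellar 1, Cox6a2 was 148.2 CPM (3.75 to 28.3 in the others), Cox8b 49.99 CPM (1.27 to 5.41), Atp5mc1 153.8 CPM (97.6 to 107.0) and the muscle markers 4.156% of counts (0.0759 to 0.570%). In patellar 4, Cyc1 was 109.6 CPM (130.2 to 132.3 in the others) and Uqcrfs1 115.3 CPM (136.6 to 139.6).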

How the results depend on the processing

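With the muscle share of counts as a term, 37 members differed among the tendons (80 without it), and 0, 0 and 0 were called for supraspinatus against flexor, patellar and Achilles tendon (74, 79 and 79 without it), 44 for flexor against patellar (14) and 40 for flexor against Achilles tendon (7). With the mean log2 CPM of the muscle markers as a term, the counts were 3 for supraspinatus against patellar, 7 for supraspinatus against Achilles and 7 for flexor against patellar tendon. Between patellar and Achilles tendon, DESeq2 called 1 member, and edgeR called 2 without Achilles 1 and patellar 1. It called 0 with all libraries and 0 without only 1 of these 2. Leaving out each library in turn gave 6 to 27 calls for flexor against patellar, 4 to 10 for flexor against Achilles and 0 to 1 for patellar against Achilles tendon.

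Fold changes of supraspinatus against Achilles tendon that changed sign with the muscle share as a term were Atp5f1e -0.08, Atp5mc1 -0.56, Atp5mf -0.37, Atp5mg -0.70, Cox4i1 -0.26, Cox6a2 -2.23, Cox6b1 -0.19, Cox8b -3.04, Cyc1 -0.12, Ndufa2 -0.47, Ndufa4 -0.52, Ndufs1 -0.17, Ndufs5 -0.68, Ndufs7 -0.28, Sdha -0.19, Sdhb -0.34, Sdhc -0.75, Sdhd -0.34, Uqcrb -0.70, Uqcrfs1 -0.00079, Uqcrh -0.11 and Uqcrq -0.76. Against patellar tendon Cox6a2 was -0.69 and Cox8b -1.05. With the log2 term Cox6a2 was -1.21, -2.14 and -2.11 for supraspinatus against flexor, patellar and Achilles tendon and -0.93 and -0.90 for flexor against patellar and Achilles tendon, and Cox8b was -1.65, -2.69, -2.84 and, for flexor against Achilles tendon, -1.19. The cause was not tested.

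Same-numbered libraries may come from 1 rat, which the labels do not state. Their deviations from the tendon means had r of -0.21 to 0.37 over 24 pairs, 9 of them over 0.1, and a fit with the replicate block gave 80, 74, 79, 79, 20, 7 and 0 calls for the comparison among tendons and the 6 pairs. With scaling by library totals the median over all genes was -0.31, -0.46 and -0.47 for supraspinatus against flexor, patellar and Achilles tendon, that of the members 0.98, 0.95 and 1.11, and the calls were 72 higher and 0 lower, 72 and 5, and 75 and 5.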
